A study of Saccharomyces cerevisiae with 6 samples.

Results

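The heat shock and general stress genes of budding yeast were examined in a β-carotene-producing strain and its parent. The set holds 32 genes chosen by name (chaperones, co-chaperones, stress proteins and their transcription factors), and all 32 were found among the 6445 genes of the deposited tables and passed the filter on low counts. The producer carries the genotype label CrtI/E/YB, after carotenoid synthesis genes placed in the CEN.PK2-1C background, and the parent is CEN.PK2-1C, a haploid laboratory strain labelled WT. Each strain gave 3 libraries from cell pellets of cultures kept for 18 h in YPD, a rich glucose medium, at 30 °C with shaking, and none was heat shocked. Nothing in the labels ties the replicates to separate cultures, and p-values therefore describe the spread among these samples alone, which may be technical. The labels also name no strain carrying an empty construct, so the effect of the introduced enzymes and of the strain construction cannot be told apart.

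The heat shock response of yeast rests on transcription factors of different kinds. Hsf1, an essential factor, binds heat shock elements and drives genes of protein folding, while Msn2 and Msn4 bind the stress response element AGGGG and drive a broad program for heat, osmotic, oxidative and starvation stress. Several chaperone genes are targets of both. Many chaperones come as paralogs, of which one is made at all times and the other mainly under stress. The members were sorted by textbook knowledge into 14 Hsf1 chaperone targets, 6 targets of both, 7 Msn2/4 targets, 2 ribosome-associated Hsp70 genes and the 3 transcription factors.

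Library totals were 56.8, 58.3 and 57.0 M estimated counts (M, mega) for the producer, against 57.5, 48.7 and 48.4 M for the parent. GAL80, the repressor of the galactose genes, which the genotype labels do not name, was counted 0, 0 and 2 times in the producer, against 6267, 4941 and 4891 times in the parent. The strains thus also differed in GAL80, and the part of this difference in the results cannot be told apart from that of the introduced genes. Counts were scaled with TMM factors to CPM (counts per M counts of the library) and tested with edgeR's quasi-likelihood test over all 6125 genes that passed the filter, with an adjusted p under 0.05 as the threshold for passing. Over all of these genes the log2 fold change followed the GC content of the gene (Spearman 0.642 over 6045 genes; genes are no independent replicates). Among the 32 members the same correlation was weaker, at 0.287. The members are richer in GC than most genes, with a median of 41.7% against 39.6%. Values from a fit with a GC-content offset are therefore given for some members, among them all whose sign turned under it. Members without a printed offset value shifted too: the log2 fold change of SSA4 went from -0.36 to -0.49 and that of HSC82 from -0.15 to -0.08.

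Of the 32 heat shock and stress genes 1 passed the test, HSP26, which was lower in the producer. No other member differed between the strains by this measure. In edgeR 0 members passed as higher, against a background of 0.8% of all genes tested, and 1 passed as lower, against 0.343%. At an unadjusted p under 0.05 edgeR had 1 member higher and 4 lower, against 13.8% and 13.5% of all genes. DESeq2 called DDR48 higher besides HSP26 lower, against 7.02% and 5.57% of all genes, and limma-voom called HSP26 alone, against 0.294% lower. The median log2 fold change of the 32 genes was -0.03, against -0.01 over all genes tested. For 27 of the 32 the 95% interval lay within a change of 1.5-fold in either direction, as it did for 81.8% of all genes, and the 5 others were HSP82, SSA4, FES1, HSP26 and SIP18.

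**Figure D1:**
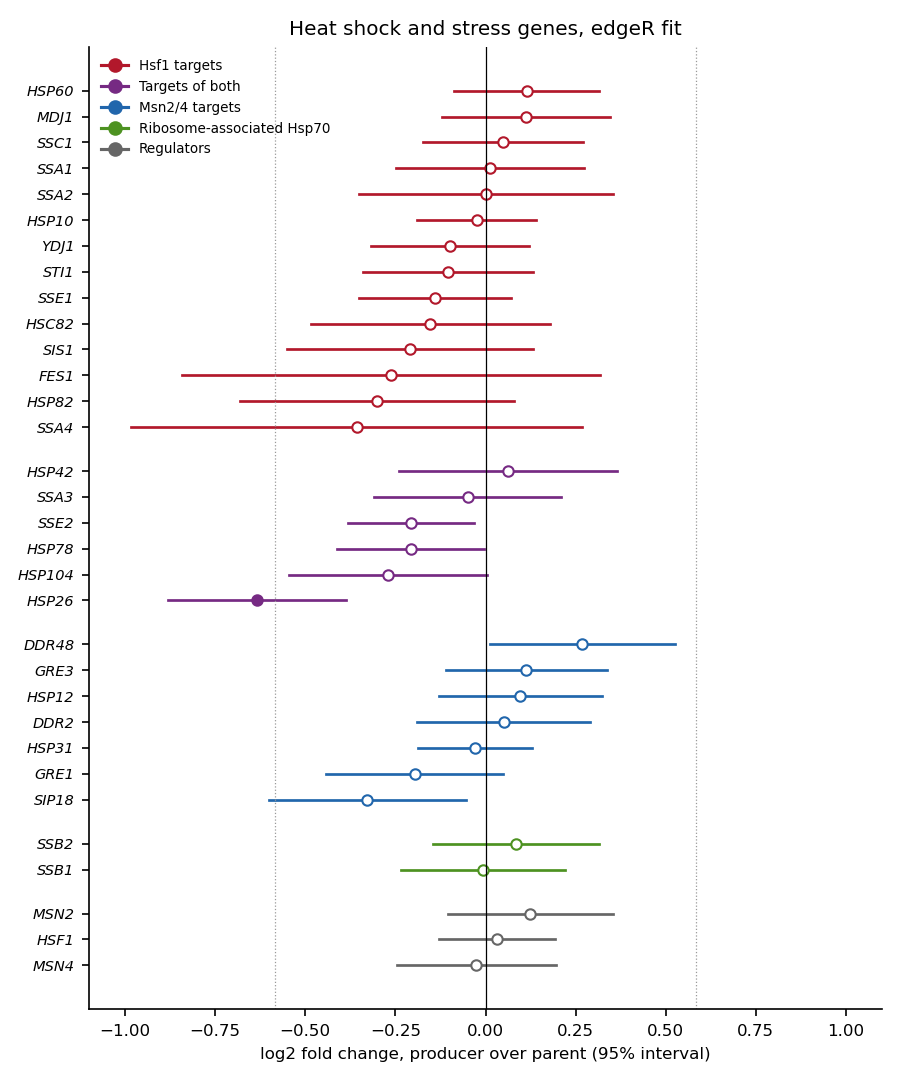
Log2 fold change of each of the 32 genes, producer over parent, with its 95% interval from edgeR (filled point, adjusted p under 0.05; dotted lines, 1.5-fold). HSP26 at -0.63 is the only filled point, and the widest intervals belong to SSA4, FES1 and HSP82.

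HSP26 encodes a small heat shock protein that forms large oligomers, binds unfolding proteins and keeps them ready for refolding. Its level was 117, 104 and 117 CPM in the producer libraries, against 171, 149 and 203 CPM in the parental libraries. All 3 producer libraries lay below all 3 parental ones. The means were 112 ± 7.11 CPM in the producer and 175 ± 27.1 CPM in the parent (SD, n = 3 each), a log2 fold change of -0.63 ± 0.11 (SE) with a 95% interval from -0.88 to -0.39 and an edgeR adjusted p of 0.0361. With the GC-content offset it was -0.74 ± 0.10, with an adjusted p of 0.00943. The edgeR adjusted p was 0.109, 0.146 and 0.0914 without producer replicate 1, 2 or 3 and 0.153 without parent replicate 3, and the log2 fold change then lay between -0.66 and -0.51. With library totals (log2) added to the model the value was -0.58 with an adjusted p of 0.663, and in that fit 10 genes passed in all.

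Other targets of both Hsf1 and Msn2/4 lay lower in the producer without passing the test. HSP104, the disaggregase that pulls proteins out of aggregates, had 1414, 1334 and 1555 CPM in the producer, against 1657, 1961 and 1577 CPM in the parent. The groups did not overlap, although producer replicate 3 and parent replicate 3 were close. The log2 fold change was -0.27 ± 0.12 (SE) with an edgeR adjusted p of 0.187. HSP78, its counterpart in the mitochondrial matrix, had 697, 691 and 714 CPM in the producer, against 755, 829 and 845 CPM in the parent, with a log2 fold change of -0.21 ± 0.09 and an edgeR adjusted p of 0.177. SSE2, the stress-induced member of the Hsp110 pair of nucleotide exchange factors, had 276, 249 and 285 CPM in the producer, against 307, 329 and 299 CPM in the parent. Its log2 fold change was -0.21 ± 0.08 with an edgeR adjusted p of 0.133. In these 3 genes the highest producer library stayed below the lowest parental one.

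The remaining targets of both factors overlapped between the strains. HSP42, the other cytosolic small heat shock protein, which gathers misfolded proteins into deposits, had 1160, 1073 and 1428 CPM in the producer, against 1163, 1287 and 1057 CPM in the parent. Its log2 fold change was 0.06 ± 0.13 (SE). SSA3, a stress-induced cytosolic Hsp70, was at -0.05 ± 0.11. Over the 6 genes the median log2 fold change was -0.21, with 1 positive and 5 negative values, and the groups did not overlap in 4, all lower in the producer. Over all 32 members 6 were lower in the producer with no overlap and 2 higher, against 17.2% and 16.6% of all genes tested. With the GC-content offset the median of the targets of both was -0.20, against -0.16 for Hsf1 chaperone targets and -0.19 for Msn2/4 targets.

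**Figure D2:**
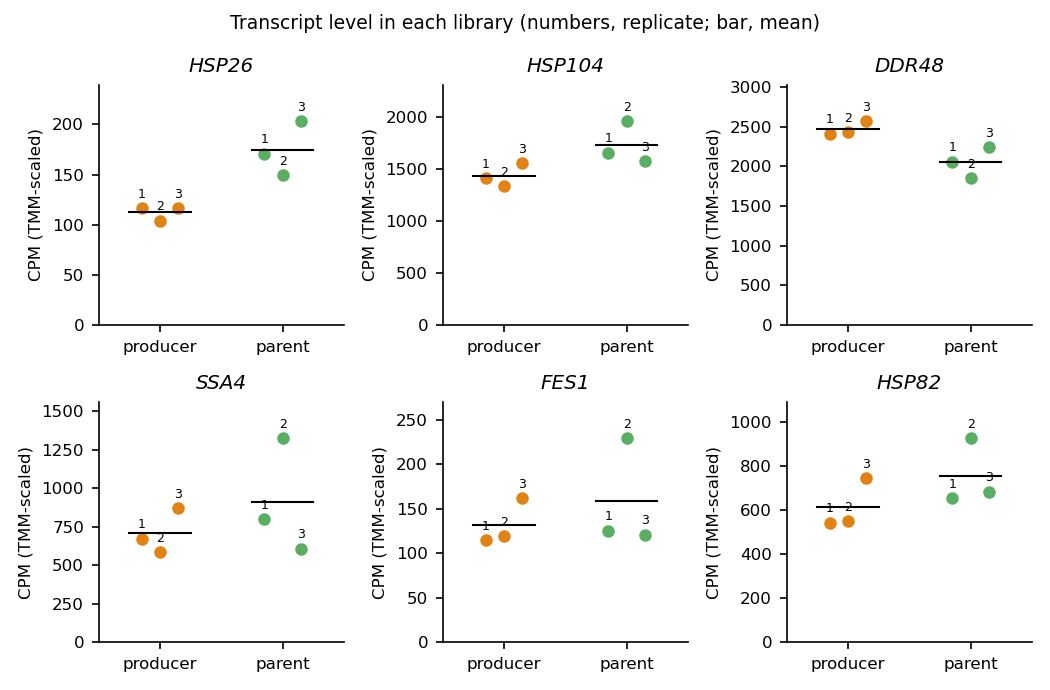
Transcript level in CPM of 6 of the genes in each library, with the replicate number above each point and the mean as a bar; axes start at 0. HSP26 separates the strains, HSP104 and DDR48 separate them by less, and SSA4, FES1 and HSP82 are highest in parent replicate 2.

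The Hsf1 chaperone targets varied among the libraries of each strain. Of the 14 genes, 0 passed the edgeR test in either direction. An unadjusted edgeR p under 0.05 was reached by 0, against 13.8% of all genes as higher and 13.5% as lower. DESeq2 and limma-voom called none of them either. SSA4, the cytosolic Hsp70 that is most strongly induced by heat, had 673, 586 and 872 CPM in the producer, against 800, 1323 and 609 CPM in the parent. Parent replicate 2 stood at 2.17 times parent replicate 3, and the highest producer library at 1.49 times the lowest. The strains overlapped, and the log2 fold change was -0.36 ± 0.27 (SE) with an edgeR adjusted p of 0.409.

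FES1, a nucleotide exchange factor of cytosolic Hsp70, had the same highest library as SSA4 within each strain. It had 115, 119 and 162 CPM in the producer, against 126, 229 and 121 CPM in the parent. Parent replicate 2 was the highest of all 6, and producer replicate 3 was the highest of its strain. HSP82, the stress-induced Hsp90, had 543, 550 and 744 CPM in the producer, against 655, 925 and 684 CPM in the parent. SIS1, the essential J-domain partner of Hsp70, had 396, 370 and 431 CPM in the producer, against 404, 586 and 393 CPM in the parent. The same pair of libraries was again highest within each strain for HSP82 and SIS1. Log2 fold changes were -0.26 ± 0.25 for FES1, -0.30 ± 0.17 for HSP82 and -0.21 ± 0.15 for SIS1, and edgeR adjusted p values were 0.508, 0.266 and 0.382. Without parent replicate 2 these values were 0.10, -0.13 and -0.0004, and SSA4 stood at 0.01.

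In 10 of the 14 Hsf1 chaperone targets, 71.4%, parent replicate 2 was the highest parental library and producer replicate 3 the highest producer library. The same held for 24.7% of all genes tested, a comparison drawn after the values were seen. Set against each gene's mean over all 6 libraries, the producer libraries had class medians of -0.10, -0.11 and 0.13 (log2 CPM), against 0.01, 0.20 and -0.09 for the parental libraries. The strains overlapped. Across 5540 genes, deviations from the strain means in producer replicate 3 and parent replicate 2 correlated at 0.649. This was the highest value of the 9 pairs of a producer and a parental library, and it covers genes beyond the heat shock set. Deviations from a mean of 3 libraries constrain one another, and this pair was singled out after its values were seen, so the value is a description only. Of 22 further Hsf1 targets and chaperone partners outside the set, 5 had the same highest libraries, or 22.7%, a share near that of all genes. They were APJ1, BTN2, CUR1, RPN4 and JJJ3, named after their values were seen. BTN2, which sorts misfolded proteins, had 201, 228 and 319 CPM in the producer, against 232, 524 and 200 CPM in the parent. Parent replicates 2 and 3 had the smallest totals, at 48.7 and 48.4 M, and producer replicate 3 had 57.0 M. The part of depth or culture state in this pattern was not tested.

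**Figure D3:**
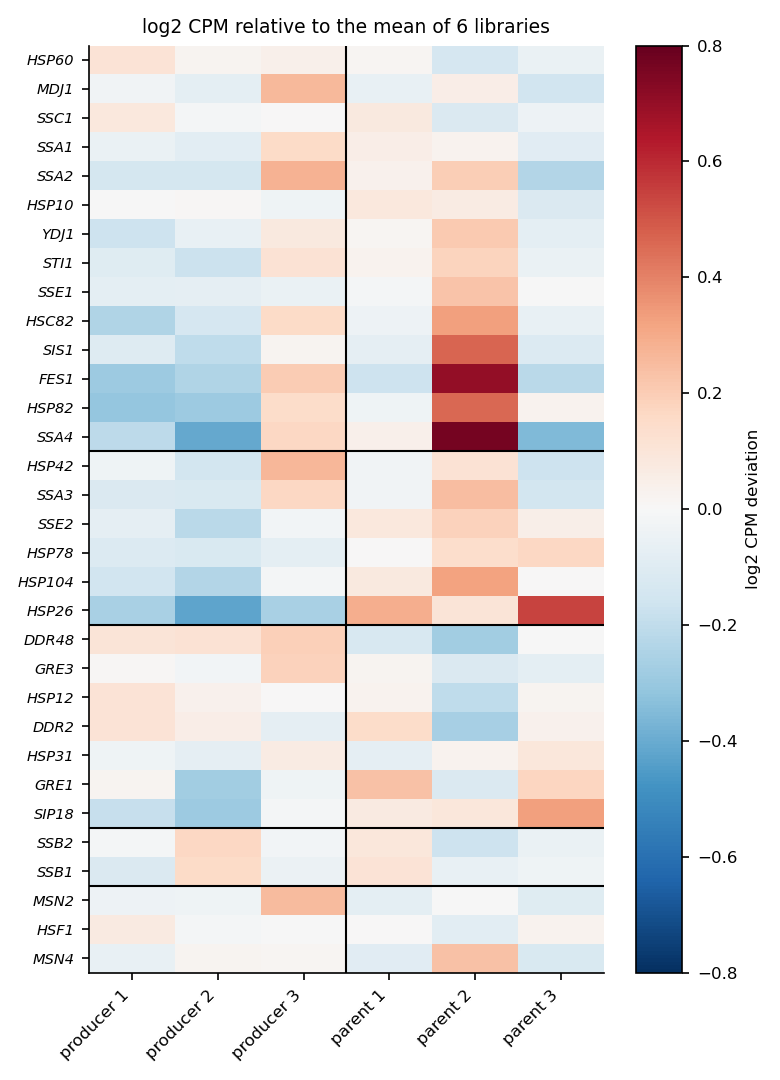
Log2 CPM of each of the 32 genes relative to its mean over the 6 libraries, with producer libraries left of the line and parental libraries right of it; horizontal lines part the classes in the order of Hsf1 targets, targets of both, Msn2/4 targets, ribosome-associated Hsp70 and regulators. Parent replicate 2 is high for SSA4, FES1, HSP82 and SIS1, and the row of HSP26 is low across the producer.

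None of the other cytosolic chaperones passed the test, and each of those named here had a 95% interval within 1.5-fold. SSA1 and SSA2, the abundant Hsp70s that fold new proteins and help move them across membranes, had log2 fold changes of 0.01 ± 0.12 (SE) and 0.00 ± 0.16. SSA1 was at 2391 ± 224 CPM in the producer and 2372 ± 127 CPM in the parent (SD, n = 3 each). HSC82, the Hsp90 made at all times, was at -0.15 ± 0.15. The co-chaperone STI1, which links Hsp70 to Hsp90, was at -0.10 ± 0.10 and YDJ1, the general J protein of the cytosol, at -0.10 ± 0.10. SSE1, the constitutive Hsp110, had 503, 504 and 511 CPM in the producer, against 524, 620 and 529 CPM in the parent. Its groups did not overlap, but the producer libraries lay close to 2 of the parental ones, and the log2 fold change was -0.14 ± 0.09 with an edgeR adjusted p of 0.345.

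Chaperones of the mitochondrial matrix, which fold imported proteins, did not pass the test. HSP60, the chaperonin, had 747, 703 and 710 CPM in the producer, against 700, 630 and 667 CPM in the parent. Its groups did not overlap, and the log2 fold change was 0.11 ± 0.09 (SE) with an edgeR adjusted p of 0.414. With the GC-content offset the value was -0.02. HSP10, the lid of the chaperonin, was at -0.02 ± 0.07. SSC1, the mitochondrial Hsp70 that pulls proteins through the import channel, was at 0.05 ± 0.10, and its J-domain partner MDJ1 at 0.11 ± 0.10. For each of these 4 genes the 95% interval stayed within 1.5-fold.

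Among the 7 Msn2/4 targets 0 passed in edgeR, and 4 values were positive and 3 negative. At an unadjusted p under 0.05 edgeR had 1 higher and 1 lower, against 13.8% and 13.5% of all genes. DDR48, a stress protein named for its response to DNA damage, had 2412, 2431 and 2569 CPM in the producer, against 2060, 1851 and 2241 CPM in the parent. All producer libraries were above all parental ones. The log2 fold change was 0.27 ± 0.11 (SE) with an edgeR adjusted p of 0.170, and DESeq2 gave an adjusted p of 0.0352. HSP12, a small membrane-bound protein and the best-known reporter of Msn2/4 activity, had 848, 803 and 787 CPM in the producer, against 800, 683 and 797 CPM in the parent. The strains overlapped, and its log2 fold change was 0.10 ± 0.10, or -0.19 with the GC-content offset. DDR2, another widely used reporter of these factors, was at 0.05 ± 0.11, or -0.22 with the offset.

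SIP18 and GRE1, 2 hydrophilins of the Msn2/4 class linked to water loss, had lower mean values in the producer. Neither passed in the main edgeR fit. SIP18, the least abundant member in CPM, had 14.1, 13.2 and 15.9 CPM in the producer, against 16.9, 17.1 and 20.2 CPM in the parent. The groups did not overlap, and the log2 fold change was -0.33 ± 0.12 (SE) with an edgeR adjusted p of 0.131. GRE1 had 131, 107 and 126 CPM in the producer, against 152, 120 and 146 CPM in the parent, which overlap. Its log2 fold change was -0.20 ± 0.11 (edgeR adjusted p 0.265), and it was -0.48 ± 0.08 with an adjusted p of 0.0236 under the GC-content offset. There 2 members passed as lower, GRE1 and HSP26, against 0.447% of all genes. GRE3, an aldose reductase, was at 0.11 ± 0.10 and HSP31, a methylglyoxalase of the DJ-1 family, at -0.03 ± 0.07.

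The transcription factors themselves did not pass. HSF1 had 363, 342 and 345 CPM in the producer, against 347, 327 and 354 CPM in the parent, a log2 fold change of 0.03 ± 0.07 (SE) whose 95% interval, -0.13 to 0.19, excludes a change of 1.5-fold. MSN2, the constitutively made factor of its pair, had 502, 503 and 615 CPM in the producer, against 490, 515 and 483 CPM in the parent. Producer replicate 3 stood apart from the rest there. The log2 fold change of MSN2 was 0.12 ± 0.10, and that of MSN4, the paralog whose own transcription responds to stress, was -0.03 ± 0.10. Both factors act mainly through movement into the nucleus, which transcript levels do not show.

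SSB1 and SSB2 encode the Hsp70 that sits on the ribosome and meets new chains as they emerge. SSB1 was at 561 ± 55.7 CPM in the producer and 564 ± 35.8 CPM in the parent (SD, n = 3 each), and SSB2 at 599 ± 45.9 CPM in the producer and 565 ± 50.9 CPM in the parent. Their log2 fold changes were -0.01 ± 0.10 (SE) and 0.08 ± 0.10. Producer replicate 2 was the highest library for both genes.

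Set side by side, the Hsf1 chaperone targets had a median log2 fold change of -0.10 (5 positive, 9 negative) and the Msn2/4 targets one of 0.05. The difference of the medians was -0.15. The same difference was taken in single libraries, in log2 CPM relative to each gene's mean over all 6 libraries. It was -0.12, -0.09 and 0.13 for the producer, against -0.01, 0.32 and -0.12 for the parent. The strains overlapped in it. The difference was 0.03 without parent replicate 2 and 0.03 with the GC-content offset, so its sign rested on that library and on that setting. With the offset the class medians were -0.16 for Hsf1 targets and -0.19 for Msn2/4 targets, against 0.01 over all genes, and 28 of the 32 members were negative, against 47.8% of all genes. Without the offset 19 of the 32 members were negative, against 51.5% of all genes. No test over the classes was made, since the members were chosen by name with results of these data known.

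**Figure D4:**
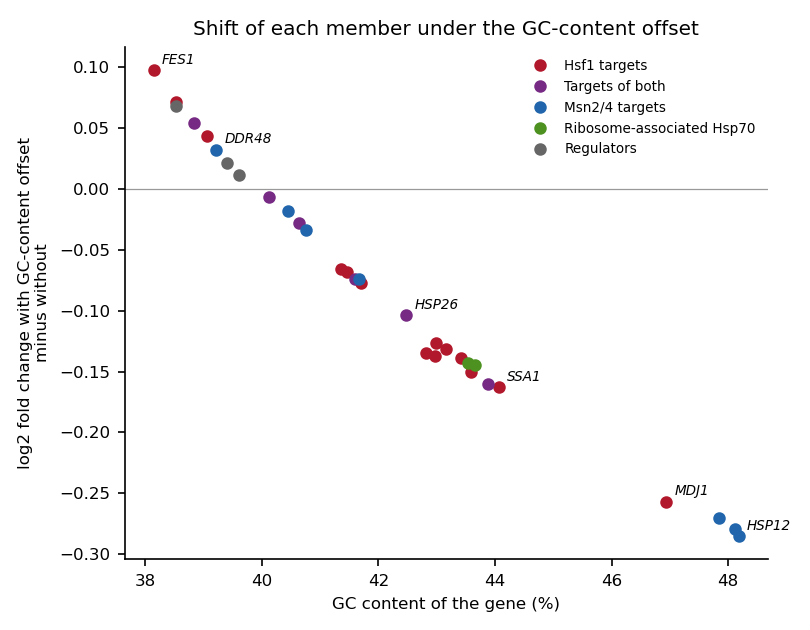
Change in each member's log2 fold change (producer over parent) when the GC-content offset is applied, plotted against the GC content of the gene in percent. The shift runs downward with GC content, and a dependence on GC content is built in, since the offset is fitted on it. The shift takes the log2 fold change of HSP12, at 48.2% GC, from 0.10 to -0.19, while DDR48, at 39.2%, moves little.

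Per length of coding sequence the transcripts of HSP12, DDR48 and DDR2 were the most abundant of the 32 members. The other Msn2/4 targets ranked lower, GRE3 at 6, GRE1 at 20, HSP31 at 27 and SIP18 at 31. HSP12 and DDR2 have short coding sequences, of 330 and 186 bp. In plain CPM both lay below SSA1, with HSP12 at 813 in the producer and 760 in the parent. HSP12 stood first at 2463 ± 95.6 CPM per kb in the producer and 2304 ± 202 CPM per kb in the parent (SD, n = 3 each). DDR48 followed at 1911 ± 66.4 CPM per kb in the producer and 1586 ± 151 CPM per kb in the parent, and DDR2 at 1439 ± 90.4 CPM per kb in the producer and 1389 ± 197 CPM per kb in the parent. SSA1, the most abundant chaperone on this scale, was at 1240 ± 116 CPM per kb in the producer and 1230 ± 65.7 CPM per kb in the parent. The spreads of DDR2 and SSA1 overlap in both strains, and those of DDR48 and DDR2 in the parent. SSA3 was at 63.7 ± 7.38 CPM per kb in the producer and 65.9 ± 9.38 CPM per kb in the parent, near the bottom with SIP18.

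Ratios of paralogs within a library do not depend on scaling between libraries. They were compared in 7 pairs with a two-sided exact permutation test, whose smallest possible p for 3 against 3 is 0.1. HSP82 over HSC82 was 0.646, 0.607 and 0.672 in the producer, against 0.677, 0.738 and 0.716 in the parent. All producer ratios lay below all parental ones, with a log2 difference of -0.15 ± 0.06 (SE), an exact permutation p of 0.1 and 0.35 after adjustment over the 7 pairs. HSP82 made up 38.9% ± 1.21 of the Hsp90 transcripts per length in the producer and 41.4% ± 1.05 in the parent (SD, n = 3 each). The genes are 91.7% identical over their coding sequence, with an identical run of 113 bp, so their reads may be shared.

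For the induced Hsp70s the strains overlapped. SSA4 over SSA2 was 0.546, 0.474 and 0.530 in the producer, against 0.573, 0.848 and 0.526 in the parent, where replicate 2 stood apart. SSA4 held 15.3% ± 1.22 of the SSA1 to SSA4 transcripts per length in the producer and 18.6% ± 4.98 in the parent (SD, n = 3 each), and 24.2% in parent replicate 2. SSA3 over SSA2 differed by -0.04 ± 0.06 on the log2 scale, SSA1 over SSA2 by 0.01 ± 0.11, SSE2 over SSE1 by -0.07 ± 0.07 and MSN4 over MSN2 by -0.13 ± 0.12, all with overlapping strains and exact permutation p values between 0.4 and 1. For SSA4 over SSA2 the difference was -0.30 ± 0.22 with an exact permutation p of 0.3.

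SSB1 over SSB2, a pair in which neither gene is stress-induced, was 0.902, 0.957 and 0.949 in the producer, against 0.978, 1.04 and 0.982 in the parent. The producer ratios were all lower, by -0.10 ± 0.04 on the log2 scale, with an exact permutation p of 0.1 (0.35 over the 7 pairs). This constitutive pair thus separated the strains as HSP82 over HSC82 did. The SSB genes are 97.4% identical with a run of 563 bp, and SSA1 and SSA2 are 96.4% identical with a run of 383 bp, so the split of reads within these pairs is uncertain. SSA4 and SSA2 share 74.3% and SSE2 and SSE1 71.7%, with identical runs of at most 23 bp.

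**Figure D5:**
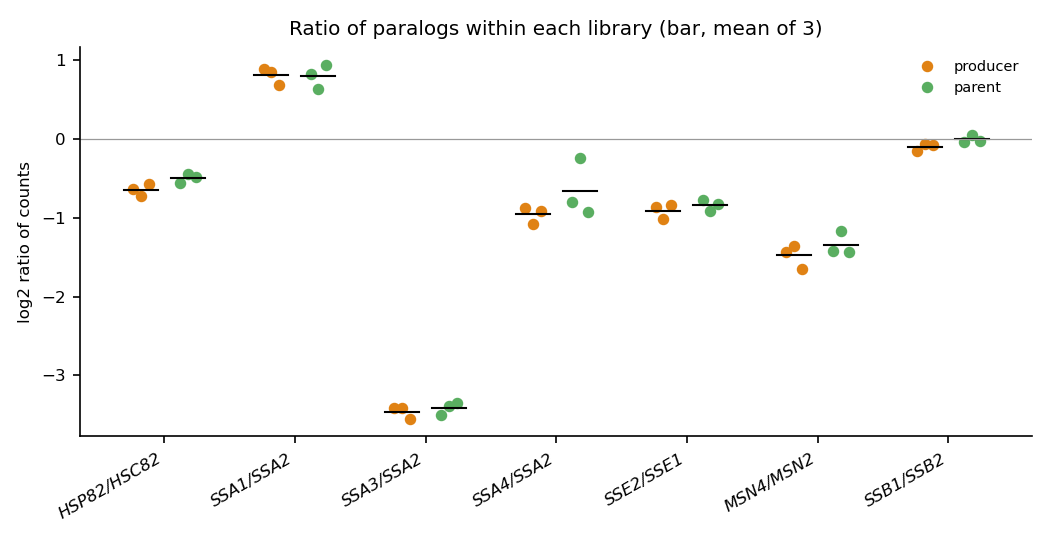
Log2 ratio of counts within each library for 7 pairs of paralogs, the stress-induced gene over the constitutive one except for SSB1 over SSB2, with the mean of 3 libraries as a bar (producer left, parent right in each pair). The strains separate for HSP82 over HSC82 and for SSB1 over SSB2, and a single parental library lifts the mean of SSA4 over SSA2.

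Upstream sequences show which of these genes carry the binding letters of the factors near their start. The 300 bases before the start codon of each gene, from RefSeq (assembly R64, the sequence behind sacCer3), were searched on both strands for the stress response element (STRE) AGGGG, for a heat shock element (HSE) of 2 units, GAANNTTC or TTCNNGAA, and for one of 3 units, in which a further GAA or TTC follows the 2-unit form in alternation at the same spacing. Of 6001 such windows, 22.2% held an STRE, 22.4% a 2-unit and 0.867% a 3-unit HSE. Among the members, 7 of 14 Hsf1 chaperone targets, 3 of 6 targets of both and 0 of 7 Msn2/4 targets held a 3-unit HSE, and 4, 4 and 5 of them held an STRE. A match is a description of letters and not a bound site.

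HSP26, the gene that differed, and HSP42, the other small heat shock protein, are shown from base -300 to base -101, counted back from the start codon, with STRE and HSE letters in capitals. The HSP26 window (chrII:381730-381929, plus strand) holds no match, and neither does the rest of its 300 bases. That of HSP42 (chrIV:806321-806520, plus strand) holds a run of overlapping HSE units and 3 STRE copies.
HSP26: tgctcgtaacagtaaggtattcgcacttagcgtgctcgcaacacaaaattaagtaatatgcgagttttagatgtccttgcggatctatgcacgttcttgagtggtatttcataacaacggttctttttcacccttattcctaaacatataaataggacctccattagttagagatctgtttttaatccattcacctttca
HSP42: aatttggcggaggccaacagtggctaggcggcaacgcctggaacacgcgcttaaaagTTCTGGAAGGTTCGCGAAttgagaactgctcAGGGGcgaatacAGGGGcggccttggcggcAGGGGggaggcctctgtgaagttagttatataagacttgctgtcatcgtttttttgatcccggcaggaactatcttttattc

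HSP12 (chrVI:106956-107155, plus strand) and SSA4 (chrV:364289-364488, plus strand) are shown in the same way as the reporters of the Msn2/4 and the Hsf1 class. HSP12 has 2 STRE copies, read here on the other strand as CCCCT, and no HSE. SSA4 has a 2-unit HSE and 1 STRE.
HSP12: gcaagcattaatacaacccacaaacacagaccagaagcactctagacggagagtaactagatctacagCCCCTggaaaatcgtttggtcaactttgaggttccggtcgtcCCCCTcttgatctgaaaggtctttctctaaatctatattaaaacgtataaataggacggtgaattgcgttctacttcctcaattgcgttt
SSA4: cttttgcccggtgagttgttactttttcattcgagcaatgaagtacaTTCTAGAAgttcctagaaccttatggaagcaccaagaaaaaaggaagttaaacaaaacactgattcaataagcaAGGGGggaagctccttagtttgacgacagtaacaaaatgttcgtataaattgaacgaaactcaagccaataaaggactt

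Other genes of these pathways, none of them members, gave 0 calls in edgeR with all 6 libraries, against 0.8% of all genes higher and 0.343% lower. Without parent replicate 1, edgeR called CDC37, PHM8, XBP1, PSR2, TFS1 and ECM4 among them, of which TFS1 and ECM4 are named for these calls alone. In that setting 1077 of 6143 genes passed, 582 higher and 495 lower. The lists hold 22, 32 and 21 genes, so the share called in them was below that of all genes. Of 22 further Hsf1 targets and partners of Hsp90 and Hsp70, 0 had an unadjusted edgeR p under 0.05 as higher and 1 as lower, against 13.8% and 13.5% of all genes. DESeq2 called 0 higher and 1, CDC37, lower, against 7.02% and 5.57% of all genes. CDC37, which brings kinases to Hsp90, had the smallest p, with 199, 191 and 186 CPM in the producer, against 216, 254 and 256 CPM in the parent. Its log2 fold change was -0.33 ± 0.08 (SE) with an edgeR adjusted p of 0.0698, and -0.14 ± 0.07 with the GC-content offset. HCH1, an activator of Hsp90, followed at 0.16 ± 0.08.

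Of 32 further Msn2/4 targets, 0 passed in edgeR. At an unadjusted p under 0.05 edgeR had 3 higher and 3 lower, against 13.8% and 13.5% of all genes. DESeq2 called XBP1 higher and PHM8 lower, against 7.02% and 5.57% of all genes. PHM8, a phosphatase, had 55.4, 52.5 and 73.3 CPM in the producer, against 89.3, 132 and 96.8 CPM in the parent. The groups did not overlap, and the log2 fold change was -0.81 ± 0.17 (SE) with an edgeR adjusted p of 0.0609. XBP1, a repressor made under stress and starvation, was at 0.28 ± 0.08, or 0.06 with the GC-content offset. The list median was 0.04, or -0.06 with the offset.

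Among 21 genes that signal to these factors (the Ras and protein kinase A pathway, kinases, phosphatases and carriers), 0 passed in edgeR. At an unadjusted p under 0.05 edgeR had 3 higher and 1 lower, against 13.8% and 13.5% of all genes. DESeq2 called PSR2 higher, against 7.02% of all genes. PSR2, a phosphatase of the plasma membrane, was at 0.24 ± 0.07 (SE) with an edgeR adjusted p of 0.0989, and RAS2, the GTPase that turns on protein kinase A, at 0.22 ± 0.09 with an adjusted p of 0.149. With the GC-content offset they were at 0.11 and 0.05. The limma-voom test called 0 genes of these 3 lists.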

How the data were processed

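RNA was measured in 6 libraries. The authors deposited estimated counts per gene, 1 table for each library, made from StringTie transcript files after duplicate removal, per the file headers; FastQC, HISAT2, SAMtools, Picard, DESeq2 and the build sacCer3 are named in the submitters' processing notes. The sources used here do not give versions, read length or the use of strand. Duplicate removal may lower abundant genes, which was not tested. The values were whole, so rounding changed nothing. Tables were joined by gene name, and 6210 of 6445 names matched RefSeq (assembly R64).

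edgeR 4.0.16 in R 4.3.3 (filterByExpr, TMM, robust quasi-likelihood F test, group as the only term, two-sided) was fitted on 6125 genes with Benjamini-Hochberg adjustment over all of them. The standard error is the log2 fold change divided by the square root of F. Alternatives were other scalings and filters, DESeq2 1.42.0, limma-voom (limma 3.58.1), covariates, a loess GC-content offset (span 0.5, genes of at least 5 CPM) and each library left out. Paralog ratios used counts plus 0.5. All pairs of libraries differed beyond sampling noise. Members and lists were chosen with earlier results of these data known. All members may be named; of each wider list with no call, the 2 genes of smallest p are named, and other genes are said to be outside this rule. The sequence of 1 further upstream window is not reported here.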

Additional observations from a re-analysis of the deposited data

How the results depend on the processing

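HSP26 kept its direction in all 16 alternative settings and passed in 11, with adjusted p between 5.48e-05 and 0.663. It lost the call without producer replicate 1, 2 or 3, without parent replicate 3 and with library totals (log2) as a covariate, so the count of members called lower was 0 there, 2 with the GC-content offset and between 0 and 1 when a library was left out. The count called higher was 1 in DESeq2 (DDR48). Of all genes tested, 1077 passed without parent replicate 1 and 804 in DESeq2, in place of 70.

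Of the 32 members 15 kept their sign in every setting and 17, none of them called where it turned, did not. With the GC-content offset SSA1 stood at -0.15, SSA2 at -0.15, HSP60 at -0.018, SSC1 at -0.091, MDJ1 at -0.14, HSP42 at -0.10, HSP12 at -0.19, DDR2 at -0.22 and SSB2 at -0.060. With that covariate SSA1 stood at -0.033, SSA2 at -0.015, SSC1 at -0.041, FES1 at 0.059, SSA3 at 0.010, HSP31 at 0.065, DDR2 at -0.10, SSB2 at -0.057 and MSN4 at 0.066. With library totals only SSA1 was at -0.037, SSA2 at -0.050 and HSF1 at -0.018, and with upper-quartile factors SSA1 was at -0.0025 and SSA2 at -0.013. Under limma-voom SSA2 was at -0.0004. When a library was left out SSA1 lay between -0.068 and 0.057, SSA2 between -0.15 and 0.10, SSA4 between -0.57 and 0.013, HSP10 between -0.083 and 0.014, FES1 between -0.44 and 0.10, HSP42 between -0.066 and 0.15, SSA3 between -0.15 and 0.069, HSP31 between -0.073 and 0.011, DDR2 between -0.059 and 0.14, SSB1 between -0.090 and 0.048, HSF1 between -0.0016 and 0.057 and MSN4 between -0.087 and 0.097. The cause was not tested.

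The Msn2/4 class median was -0.19 with the GC-content offset and between -0.023 and 0.14 when a library was left out. SSA1 over SSA2 differed by -0.0047 and SSA3 over SSA2 by 0.031 with that offset, and between -0.072 and 0.083 and between -0.086 and 0.0008 when a library was left out. A replicate block gave 104 calls in place of 70 and left HSP26 called, with SSA2 at -0.0032. Deviations of same-numbered libraries correlated at 0.406, -0.381 and -0.620, so libraries of the same number were not alike throughout. Deviations from a mean of 3 libraries constrain one another, so these values cannot decide whether the numbers pair the samples.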
